A study of Mus musculus with 6 samples.

Results

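The Zfp genes are the mouse genes whose symbol is Zfp followed by a number, and most of them encode C2H2 zinc finger proteins. Of 293 such symbols among 14490 listed genes, Zfp36 was left out because its product is an RNA-binding CCCH protein of another family. A mean of at least 200 normalized counts over the 6 samples was then required, which kept 204 of the remaining 292 genes. The members were thus selected on their level over all samples, with no use of genotype. The lowest members were Zfp41 with a mean of 203.4, Zfp974 with 205.8 and Zfp60 with 207.2, and the highest genes just outside were Zfp983 with 193.0, Zfp456 with 190.3 and Zfp61 with 186.7.

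The levels came from mRNA-seq of NK cells sorted from the spleens of C57BL/6 mice of 2 genotypes, with 3 samples each. WT mice were Mettl3fl/fl, so they carried the floxed alleles without Cre. The cKO mice were Mettl3fl/fl with Ncr1Cre, in which the recombinase is made from the Ncr1 locus and deletes Mettl3 in cells that express the receptor NKp46, mainly NK cells. The comparison asked which mRNAs differ between these genotypes. Only cKO mice carried the recombinase and its allele at Ncr1, so effects of these and of the loss of Mettl3 cannot be told apart. The study also reports that fully mature NK cells made up a smaller share of NK cells in cKO spleens, which bulk values cannot separate either. The labels gave no age, and the study's methods give 1 range for all of its mice, that of young adults. The labels did not say whether each sample was 1 animal or a pool, so p-values measure the spread between these samples only. A normalized count is the number of reads on a gene divided by a size factor of the sample, and it is the unit of every level below. Each value was a whole multiple of the worth of 1 read within a tolerance of 0.05 read, and 55965515 to 71464042 reads fell on the listed genes per sample. The deleted gene, Mettl3, was at 1303, 1258 and 1192 normalized counts in the WT samples, against 297, 299 and 405 in the cKO samples, in the order of their numbers, which holds for all values by sample below. No cKO value reached the WT range, and the log2 fold change of cKO over WT was −1.92 ± 0.10 (adjusted p = 2.32e-14 by limma). Here and below, log2 fold changes are of the normalized count plus 1 and are given ± SE with n = 3 per genotype, and a gene is called higher or lower when its p, adjusted over all genes, is under 0.05.

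The 9 NK cell markers checked were all listed, with a summed level of 808183 to 845568 in WT and 764603 to 800935 in cKO, and 2 of them were higher and 6 lower. Ncr1, the NK marker with the largest fall (log2 fold change −0.40), is also the locus of the Cre allele. The part of that allele in its fall was not tested. The summed level of 7 B cell markers was 1302 to 1318 in WT and 1748 to 1803 in cKO, and 5 of them were higher in cKO. For 6 T cell markers it was 2488 to 2671 in WT and 2190 to 2392 in cKO, with 1 of them lower. For 5 myeloid markers it was 6138 to 6656 against 5931 to 6687, with 2 higher and 1 lower, and for 3 erythroid markers it was 649.6 to 721.9 against 546.0 to 735.2, with none called. Of all listed genes, 17.8% were higher and 18.8% lower, and of those with a mean of at least 200, 22.4% and 25.4%. The markers Cd8b1, S100a8 and S100a9 were not among the listed genes. The part of these other cells in the values of the Zfp genes was not tested. In bulk samples, fewer cells of a type and less RNA per cell cannot be told apart.

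METTL3 is the catalytic subunit of the complex that writes N6-methyladenosine (m6A) into mRNA, a mark that alters decay, translation and splicing of the transcripts that carry it. A C2H2 finger is a small fold held together by a zinc ion, and fingers placed one after another read successive bases of DNA. Many of these proteins also carry a KRAB domain, which recruits TRIM28 (KAP1) and with it histone methylation and silencing, often of retroelements. Others lack this domain and act as promoter factors, chromatin subunits or RNA-binding proteins. The family is large, lies in clusters on the chromosomes and shares much of its sequence, and the mRNA of many members is scarce.

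The sequence that joins neighbouring fingers is shared by many of these mRNAs, though not by all. The coding sequence of 143 of the 204 members held at least 1 copy of the residues TGEKP, the classical linker between fingers. These residues were searched for anywhere in the protein. The first copy is shown for the 3 largest rises and the 3 largest falls for which it was present. Each line gives 30 coding bases on the sense strand around it, read from GENCODE transcripts of GRCm38, with the 15 bases of TGEKP in capitals.
Zfp948: attcatACTGGTGAGAAACCCtacaagtgc
Zfp213: acacacACCGGGGAGAAGCCAcacaagtgc
Zfp46: atccacACCGGCGAGAAGCCTcacaagtgc
Zfp617: cagaaaACTGGAGAAAAGCCCtgtgaaagc
Zfp788: gttcacACTGGGGAAAAGCCTtacgaatgt
Zfp938: actcacACTGGTGAGAAACCCtatgaatgc
The capitals encode the same residues in all 6 genes, and they are identical in Zfp948, a rise, and Zfp938, a fall. In Zfp617 the capitals are not preceded by a histidine codon and the line does not end in a cysteine codon, as in the other genes. Whether this copy lies between fingers was not checked. Zfp948 held 6 copies of these residues, Zfp213 3, Zfp46 7, Zfp617 11, Zfp788 8 and Zfp938 7.

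In cKO, 84 of the 204 Zfp genes differed from WT at that limit, with 48 higher and 36 lower. They made up 41.2% of the members, against 36.6% of all 14490 genes and 47.8% of the 9945 genes with a mean of at least 200. Higher levels were called for 23.5% of the members, against 17.8% of all genes and 22.4% of those above the same mean. Lower levels were called for 17.6% of the members, against 18.8% and 25.4%. The 3 cKO values lay entirely above or below the 3 WT values in 106 members, 62 above and 44 below. That is 52.0% of the members, where 45.7% of all genes and 55.8% of those with the same minimum mean were separated in this way. The median log2 fold change of the members was 0.05, beside 0.001 over all genes and −0.005 over genes with a mean of at least 200. On this scale the changes were small. They ranged from −0.69 for Zfp617 to 0.91 for Zfp948, 13 members changed by over 0.5 in size and none by over 1. The 95% interval of the log2 fold change lay within 0.5 of 0 in 160 members and within 1 of 0 in 202. When each sample was scaled to the same total over the listed genes, 69 members were higher and 28 lower, and of all genes with a mean of at least 200, 30.9% were higher and 18.6% lower, so the balance of directions depended on the scaling.

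**Figure D1:**
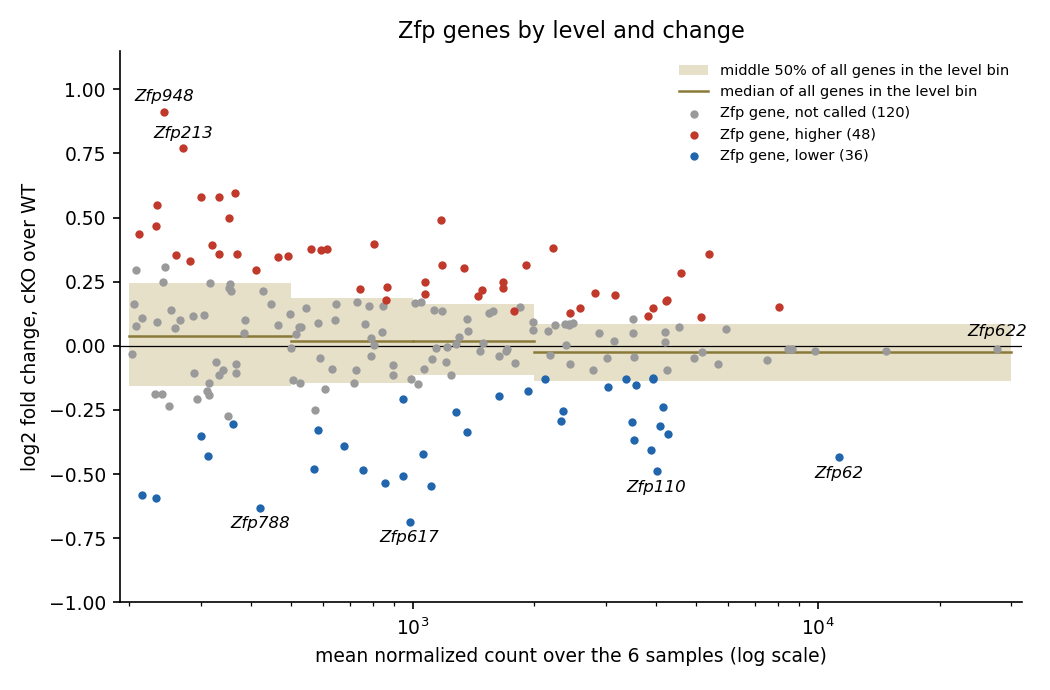
Each point is a Zfp gene, placed by its mean normalized count over the 6 samples (x axis, log scale) and its log2 fold change in cKO over WT (y axis), and the shaded steps give the middle 50% and the line the median of all genes in 4 level bins. The 48 higher and 36 lower genes lie on both sides of 0 at every level, and the spread narrows as the level rises.

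Genes of low level vary more between samples and in the whole table their changes leaned upward, so the members were also read against genes of equal level. Of 60 members with a mean of 200 to 500, 17 were higher and 6 lower, which is 28.3% and 10%, beside 19.8% and 12.8% of all 1588 genes in that bin. The median log2 fold change was 0.12 in these members and 0.04 in the bin. Between 500 and 1000, 7 of 42 members were higher and 8 lower, beside 22.8% and 18.6% of all genes. Between 1000 and 2000, 11 of 43 were higher and 6 lower, beside 25.6% and 20.4%. At 2000 and over, 13 of 59 were higher and 16 lower, beside 22.0% and 33.0%. The medians in these 3 bins were −0.002, 0.06 and −0.01 in members and 0.02, 0.02 and −0.02 in all genes. The members exceeded their bin most in the share of higher genes at 200 to 500, and the number of members in each bin is small.

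**Figure D2:**
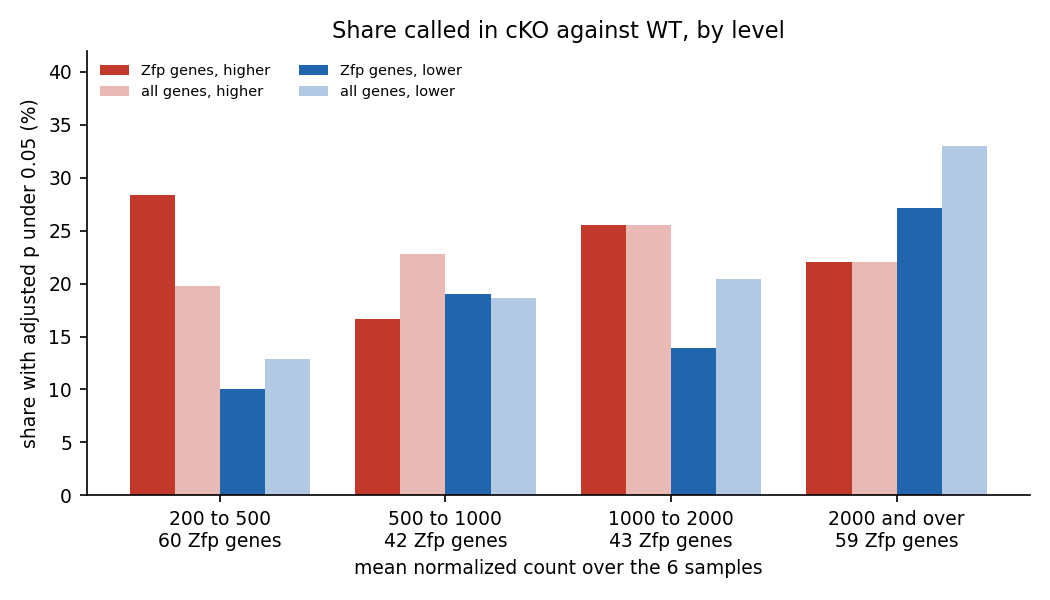
Bars give the share of genes with an adjusted p under 0.05 in percent (y axis), for Zfp genes in full colour and all genes in pale colour, in 4 bins of mean normalized count (x axis). The share of higher Zfp genes was 28.3% in the lowest bin, against 19.8% of all genes there.

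Among the members with the 10 largest rises, 9 had a mean under 500 normalized counts. Zfp948, a KRAB zinc finger gene on chromosome 17 (GRCm38, 21567008 to 21588699, plus strand), had 209.5, 158 and 142 normalized counts in the WT samples and 308, 329.9 and 313 in the cKO samples. All 3 cKO values lay above the highest WT value, and the level was 1.88-fold higher, with a log2 fold change of 0.91 ± 0.15 (adjusted p = 1.54e-05 by limma). Zfp213, the last member of the same cluster (23556767 to 23564238, minus strand), had 189, 182 and 231 in WT and 377, 339 and 310.0 in cKO. These groups were also apart, with a log2 fold change of 0.77 ± 0.13 (adjusted p = 4.35e-05). Its exons overlap 2 other annotated genes, AC154766.4 and Gm26695, and reads from them cannot be told apart where strand was not used in counting.

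Zfp46 on chromosome 4 had 307, 290.3 and 271 normalized counts in WT and 492, 364 and 466 in cKO, a log2 fold change of 0.60 ± 0.12 (adjusted p = 2.41e-04). Zfp790, a KRAB gene on chromosome 7, had 305, 222 and 276 in WT and 358, 423 and 414 in cKO, a log2 fold change of 0.58 ± 0.13 (adjusted p = 5.76e-04). In both genes every cKO sample exceeded every WT sample. Zfp608, known as a repressor of the recombination-activating genes in thymocytes, had 234, 266 and 219.6 in WT and 389, 313 and 377 in cKO. Its log2 fold change was 0.58 ± 0.13 (adjusted p = 6.16e-04). Zfp472 was the only one of the 10 with a mean above 1000, with 907, 978 and 1061 in WT and 1362, 1414 and 1351 in cKO, and its groups were separated by more than the range within either. Its log2 fold change was 0.49 ± 0.07 (adjusted p = 1.27e-06). Zfp712, Zfp637, Zfp772 and Zfp691 completed the list, with log2 fold changes of 0.55, 0.50, 0.47 and 0.44 and adjusted p of 0.00263, 8.51e-04, 0.00853 and 0.0235. The call of Zfp691 was lost without WT sample 1 or cKO sample 3 (adjusted p = 0.133 and 0.131), and that of Zfp772 without cKO sample 2 (0.0549).

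The largest fall was that of Zfp617 on chromosome 8 (71908635 to 71934629, plus strand). It had 1218, 1262 and 1156 normalized counts in the WT samples and 734, 759.7 and 766 in the cKO samples. The cKO values were close together and far below WT, 1.61-fold lower, with a log2 fold change of −0.69 ± 0.07 (adjusted p = 7.08e-09 by limma). Of the 50-base windows of its transcript, 38.6% also occur in another gene, and its exons overlap Zfp882, so its level is uncertain. The study's reads were longer than these windows, and sharing at their length was not measured. Zfp788 on chromosome 7 had 459.8, 489 and 587 in WT and 353, 293 and 344 in cKO, a log2 fold change of −0.63 ± 0.11 (adjusted p = 5.68e-05), and none of its windows were shared. Zfp938 had 298, 283 and 258 in WT and 169.8, 224 and 166 in cKO, and Zfp40 had 216, 263 and 292 in WT and 140.3, 164 and 214 in cKO. The groups of Zfp938 were apart, while those of Zfp40 nearly touched. Their log2 fold changes were −0.59 ± 0.14 (adjusted p = 0.00179) and −0.58 ± 0.16 (adjusted p = 0.00549).

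Zfp120 had 1301, 1309.9 and 1339 normalized counts in WT and 932, 935 and 837 in cKO, a log2 fold change of −0.55 ± 0.07 (adjusted p = 1.90e-07). Zfp110, which encodes a protein that binds the neurotrophin receptor p75, had 4594, 4759 and 4677 in WT and 3335, 3269.6 and 3391 in cKO. In both genes the spread within a genotype was small beside the gap between them. The log2 fold change of Zfp110 was −0.49 ± 0.04 (adjusted p = 2.14e-10). Zfp758, Zfp945, Zfp667 and Zfp748 fell by 0.53, 0.51, 0.49 and 0.48 on the log2 scale, with adjusted p of 3.97e-06, 1.75e-06, 3.33e-05 and 2.02e-04. Outside the 10, and chosen after its values were seen, Zfp62 was the lower gene with the highest level, at 12710.0, 13281 and 12910.1 in WT and 9430.2, 9763 and 9615 in cKO. Its log2 fold change was −0.43 ± 0.03 (adjusted p = 5.03e-11). Of the 20 genes named for their change, 18 kept their call in all 14 alternative settings tried. KRAB genes made up 5 of the 10 rises and 7 of the 10 falls, beside 19 of all 48 higher members, 16 of all 36 lower members and 86 of the 204 members.

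**Figure D3:**
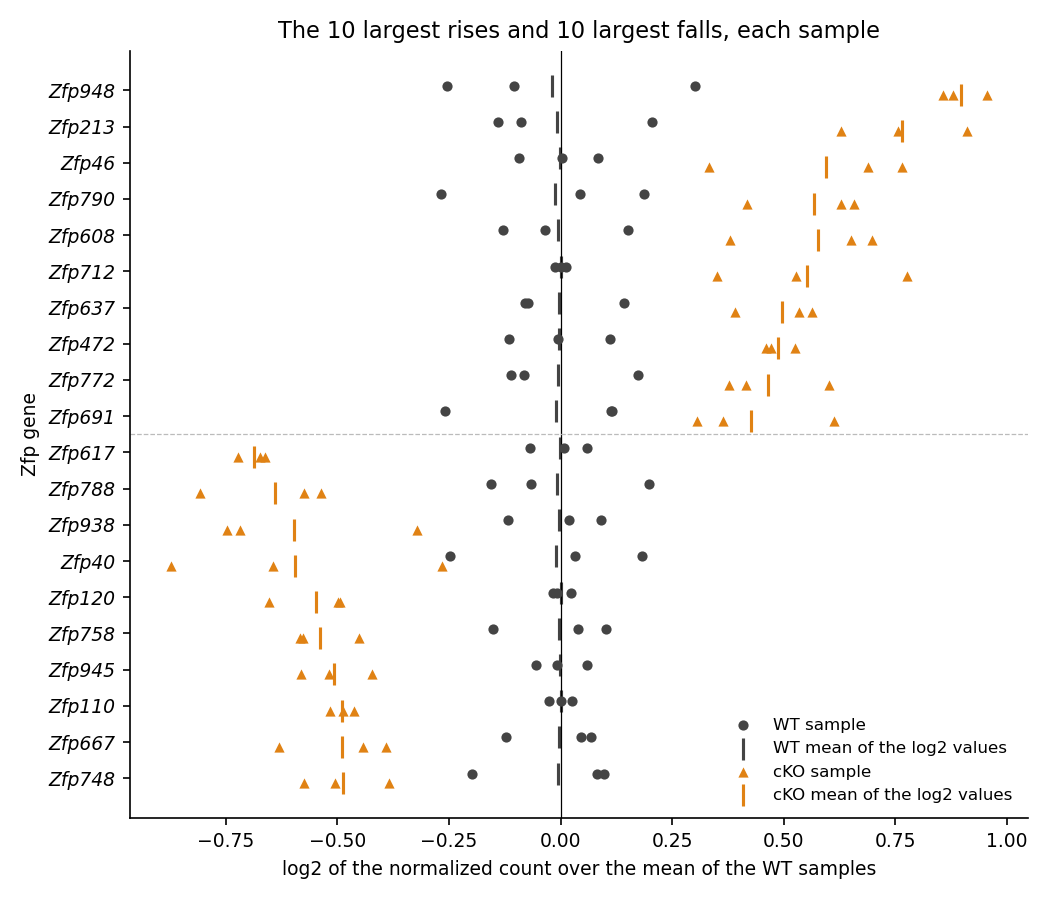
For the 10 largest rises (upper rows) and 10 largest falls (lower rows), each point is a sample, placed by the log2 of its normalized count over the mean of the WT samples (x axis), with circles for WT, triangles for cKO and vertical ticks for the mean of the log2 values. WT and cKO points do not overlap in any row, since this was required of the genes shown, and the gap is narrowest in Zfp40.

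Members with known roles outside DNA silencing were read by function. Of the 7 members that act on RNA or ribosomes, 1 was lower and none higher, a share of 14.3% beside the 47.8% of all genes above the same mean. With equal totals, Zfp830, Zfp106 and Zfp638 were called higher (adjusted p = 0.00834, 0.0127 and 0.0148 by limma), and Zfp830 also with TMM factors (0.0450). Zfp622, a factor that matures the large ribosomal subunit, had the highest level per length of all members. It had 26739, 29339 and 27643 normalized counts in WT and 27936, 27705 and 27384 in cKO, and its log2 fold change of −0.01 had a 95% interval from −0.08 to 0.06. Zfp598, the ubiquitin ligase that marks collided ribosomes, had 8747, 8312 and 8337 in WT and 8482, 8337 and 8388 in cKO, with the same interval. For both genes the WT and cKO ranges overlapped. Zfp326, a subunit of a complex that couples transcription to splicing, had 3933, 4188 and 4179.8 in WT and 3691, 3802 and 3746 in cKO, a log2 fold change of −0.13 ± 0.04 (adjusted p = 0.0139 by limma). That call was lost when samples were scaled to equal totals (adjusted p = 0.122) and when WT sample 2, WT sample 3 or cKO sample 1 was left out (0.0549 to 0.0646). Zfp830, which takes part in splicing and early development, had 1510.4, 1525 and 1485 in WT and 1594, 1765 and 1618 in cKO. Its cKO samples all lay above WT, but the test was not passed (log2 fold change 0.14 ± 0.06, adjusted p = 0.0564). Zfp106, Zfp638 and Zfp346, which bind RNA, had log2 fold changes of 0.07, 0.06 and −0.07.

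None of the 3 members on a short list of lymphocyte regulators passed the test, which 47.8% of all genes above the same mean did. The list is not complete, since Zfp608, given above with a role in thymocytes, was not on it and was higher. Zfp335, needed for T cell maturation, had 4996, 4842 and 5216 normalized counts in WT and 4781, 4626 and 5177 in cKO, with a 95% interval of the log2 fold change from −0.14 to 0.04. Zfp91, a ubiquitin ligase of the non-canonical NF-κB pathway, had 14147, 14909 and 15563 in WT and 14585, 15115 and 14259 in cKO, with an interval from −0.09 to 0.05. Zfp341, a regulator of the STAT3 gene, had 474, 499.7 and 538 in WT and 459.6, 529.8 and 513 in cKO, with an interval from −0.20 to 0.18. In each gene the genotypes overlapped. Zfp683, which encodes the resident lymphocyte factor Hobit, was under the minimum mean, with 104, 82.1 and 53.7 in WT and 66.1, 119 and 74.1 in cKO.

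Of 12 chromatin and transcription regulators without a KRAB domain, 3 were higher, 4 lower and 5 not called, a share of 58.3% beside the 47.8% of genes above the same mean. Zfp143, a promoter factor that also anchors chromatin loops, had 1178, 1253 and 1169 normalized counts in WT and 1557, 1486 and 1406 in cKO. The ranges were separate, and the log2 fold change was 0.30 ± 0.06 (adjusted p = 2.19e-04 by limma). Its exons overlap those of AA474408. Zfp451, a SUMO ligase, had 2874, 2918 and 3016 in WT and 3472, 3141 and 3491 in cKO, a log2 fold change of 0.20 ± 0.05 (adjusted p = 0.00144). Zfp148 had a log2 fold change of 0.11 ± 0.04 (adjusted p = 0.0367), with overlapping samples, and its call was lost in 5 of 14 alternative settings.

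Zfp687 was lower. It had 4552, 4516 and 4410.1 normalized counts in WT and 3951, 3759 and 3732 in cKO, a log2 fold change of −0.24 ± 0.04 (adjusted p = 3.39e-05). It belongs to a complex with Zfp592, which had 10369, 9740.0 and 9753 in WT and 9645, 9839.7 and 9924 in cKO and was not called, with an interval from −0.09 to 0.05. Zfp827, which recruits the NuRD complex to telomeres, had 1346, 1459 and 1383 in WT and 1139.8, 1175 and 1188 in cKO, a log2 fold change of −0.26 ± 0.06 (adjusted p = 0.00117). The genotypes were apart in Zfp687 and Zfp827. Zfp217 and Zfp131 had log2 fold changes of −0.13 ± 0.05 and −0.13 ± 0.05 (adjusted p = 0.0368 and 0.0345), and the samples of Zfp131 overlapped. These calls were lost in 7 and 5 of the 14 alternative settings. Zfp281, Zfp410, Zfp609 and Zfp644 were not called, with log2 fold changes of 0.02, −0.05, 0.10 and 0.08.

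None of the 5 KRAB proteins with known silencing targets passed the test, beside 47.8% of all genes above the same mean. With equal totals, Zfp445 and Zfp568 were called higher (adjusted p = 0.0344 and 0.0305 by limma). Zfp445, a guardian of imprinted loci, had 4130.1, 4179 and 4024 normalized counts in WT and 4134, 4358 and 4323 in cKO. Zfp809, which silences endogenous retroviruses, had 1185, 1304 and 1228 in WT and 1187, 1203 and 1163 in cKO. Zfp568, which represses a promoter of Igf2, had 2361, 2385 and 2335 in WT and 2403, 2479 and 2621 in cKO. Its cKO samples were slightly above WT, while the ranges of Zfp445 and Zfp809 overlapped. The 95% intervals of the log2 fold change were −0.03 to 0.14, −0.19 to 0.06 and −0.02 to 0.18. Zfp932 and Zfp961 had log2 fold changes of 0.12 and −0.09, and 55.5% of the windows of Zfp932 occur in another gene.

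The silencing machinery that KRAB proteins recruit was also measured. Trim28 itself had 12769.6, 12168 and 12839.8 normalized counts in WT and 12006, 12306 and 11822 in cKO, with a log2 fold change of −0.06 ± 0.03 that did not pass the test (adjusted p = 0.138 by limma). Once each sample was corrected for GC and transcript length, it was called lower (log2 fold change −0.10, adjusted p = 0.0150). Of 17 listed genes of this machinery, 6 were higher and 2 lower, a share of 47.1% that is close to the 47.8% of all genes above the same mean. Setdb1, the histone methyltransferase, had 2154, 2121 and 2088 in WT and 2991, 3056 and 2839 in cKO. The cKO samples lay far above WT, with a log2 fold change of 0.48 ± 0.05 (adjusted p = 5.46e-09). Uhrf1, Mphosph8, Cbx1, Morc3 and Dnmt1, which read or maintain repressive marks, were higher by 0.29, 0.27, 0.20, 0.19 and 0.12 on the log2 scale. Chd4, the remodelling ATPase of NuRD, was lower, with 35768, 33179 and 35349.8 in WT and 30192, 29096 and 30883 in cKO, and a log2 fold change of −0.21 ± 0.03 (adjusted p = 1.19e-05). Hdac1 fell by 0.09 on this scale and lost its call in 6 of 14 alternative settings, and Dnmt1 in 1.

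Structure of the encoded protein was read from the translated GENCODE coding sequences, where all 204 members matched and 203 were protein-coding. The number of C2H2 fingers ran from 0 to 37, in Zfp142, with a median of 10. Of 83 members with at least 12 fingers, 22 were higher and 18 lower, and of 71 with 7 to 11 fingers, 15 were higher and 11 lower, shares of 48.2% and 36.6% beside 47.8% of all genes above the same mean. Of 30 members with 3 to 6 fingers, 8 were higher and 3 lower, and of 19 with 2 or fewer, 2 were higher and 4 lower. A KRAB A box pattern was found in 86 members, of which 19 were higher and 16 lower, with a median log2 fold change of 0.04. The 117 members without it had 28 higher and 20 lower and a median of 0.05. Direction was therefore mixed in members with and without the box. The shares called were 40.7% with it and 41.0% without it, under the 47.8% of all genes above the same mean. The same pattern of fingers, 7 or more, was found in 67 other genes with a mean of at least 200, of which 6 were higher and 14 lower, beside 37 higher and 29 lower among 154 members. Their median log2 fold changes were −0.04 and 0.06. The classes differ in level, since members with the box had a median level of 579.6 and those without it 1674. The pattern counts no fingers in Zfp703, Zfp839, Zfp330 and Zfp935. Zfp703, a transcriptional corepressor, had 4805, 4671 and 4738 normalized counts in WT and 6134, 6039 and 6021 in cKO, a log2 fold change of 0.36 ± 0.04 (adjusted p = 1.48e-08 by limma), and its genotypes were far apart.

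Direction varied with base composition. The 102 members with a transcript GC content at or above the median of 46.2% had 28 higher and 9 lower, and the 102 below it had 20 higher and 27 lower. Their median log2 fold changes were 0.09 and −0.02. With equal totals the members of higher GC content had 41 higher and 7 lower and a median of 0.14, and the others had 28 higher and 21 lower and a median of 0.03, so the balance at lower GC content turned with the scaling. Among all genes with a mean of at least 200, those at or above the same GC content had 24.2% higher and 24.4% lower, and those below it 18.1% higher and 27.7% lower. Spearman's rho between GC content and log2 fold change was 0.25 over the 204 members and 0.04 over 9796 genes with a mean of at least 200. These genes share libraries and are not independent, so no p is given. In the 21 KRAB members of higher GC content, 6 were higher and 1 lower, and in the 65 of lower GC content, 13 and 15. In the 81 members of higher GC content without the box, 22 were higher and 8 lower, and in the 36 of lower GC content, 6 and 12. After a correction of each sample for GC content and transcript length over all genes, the members of higher GC content had 23 higher and 10 lower, and the others 18 and 28. The cause of this relation was not tested.

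**Figure D4:**
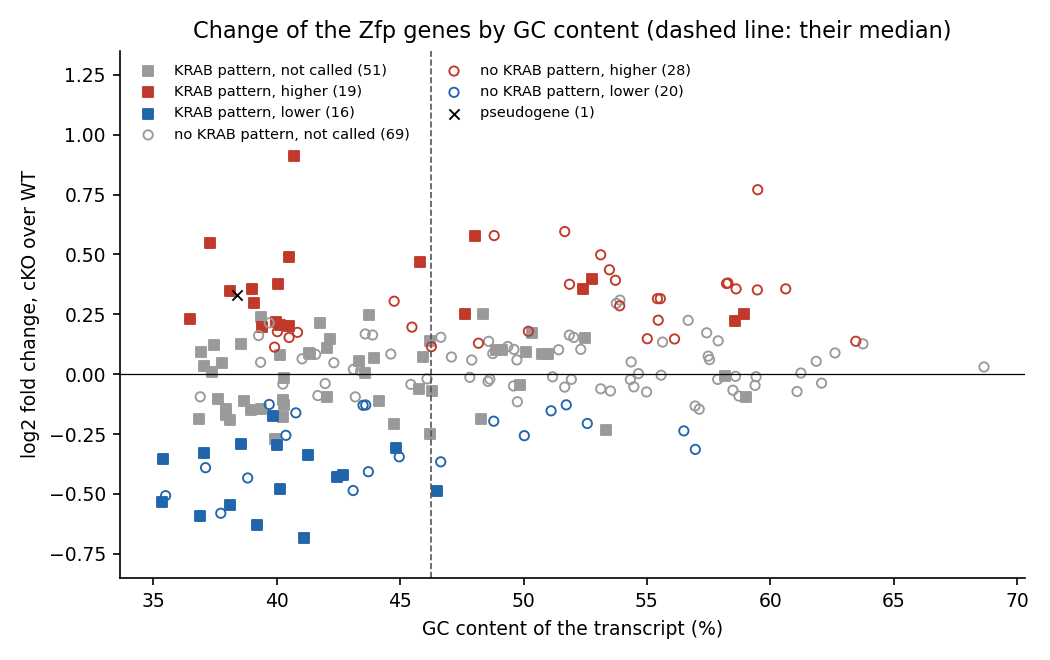
Each point is a Zfp gene, placed by the GC content of its longest coding transcript in percent (x axis) and its log2 fold change in cKO over WT (y axis), with filled squares for genes with the KRAB pattern, open circles for those without it and colour for the call. Lower genes (blue) lie mostly left of the dashed median of 46.2%, with 27 of 36 there.

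The motif in which m6A is written, DRACH, is A, G or T, then A or G, then AC, then A, C or T, and it was counted on the sense strand of each transcript. The median was 74 matches in the members, or 20.7 per kilobase, beside 20.1 per kilobase in all genes with a mean of at least 200. The members had a median 3′ UTR of 1235 bases, against 956 bases in those genes. Spearman's rho between the number of matches and log2 fold change was −0.04 over the 204 members. With transcript length it was 0.03, with 3′ UTR length −0.01, over 203 members, and with the number of fingers −0.04. Among all genes with a mean of at least 200 the rho was 0.12 with the number of matches, 0.13 with transcript length and 0.14 with coding length. Matches were counted over the whole transcript, and the part of length in the first value was not tested. A match shows only that the letters are present, and methylation was not measured in these samples.

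Many members lie in clusters on the chromosomes, and the direction was mixed in some clusters and shared in others. Using a largest gap of 500 kb, 115 members fell into 28 runs of at least 2 neighbours. Of these runs, 7 held both higher and lower genes, 8 held higher genes and no lower ones, 7 the reverse, and 6 had no call. A run with 1 call cannot be mixed. Of the runs with a single direction, only those of 10 members on chromosome 7, 8 on chromosome 6 and 4 on chromosome 8 held more than 1 call. In 16 adjacent pairs both genes were called, and in 11 of these pairs the direction was shared. For comparison with the counts of each run, 22.4% of all genes with a mean of at least 200 were higher and 25.4% lower. Among all called members 48 were higher and 36 lower. Whether neighbours share direction beyond this balance was not tested. Neighbours can share sequence and reads, so they are not independent.

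The longest run held 14 members on chromosome 17 of GRCm38 between 21008903 and 23564238, with 5 higher and 4 lower. Within it Zfp51 had 2508, 2497 and 2675 normalized counts in WT and 2083, 2195 and 1993 in cKO, while its neighbour Zfp53 had 1316, 1341 and 1389 in WT and 1546, 1636 and 1454 in cKO. The first was lower and the second higher, with log2 fold changes of −0.29 ± 0.05 and 0.20 ± 0.06 (adjusted p = 3.84e-05 and 0.00993 by limma) and separate genotypes in both. The call of Zfp53 was lost without cKO sample 2 (adjusted p = 0.0707). Zfp52 and Zfp948 followed as higher genes, and Zfp758, Zfp945 and Zfp40, further along, were lower. A run of 8 members on chromosome 13 between 67038596 and 67729173 was also mixed, with Zfp712, Zfp738 and Zfp65 higher and Zfp429, Zfp87 and Zfp748 lower. Of these, Zfp738, Zfp65 and Zfp87 lost their call when some samples were left out, with adjusted p up to 0.162.

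A run of 10 members on chromosome 7 between 127233061 and 127885996 had 6 higher and none lower, with a median log2 fold change of 0.32. Its higher genes were Zfp553, Zfp768, Zfp747, Zfp764, Zfp629 and Zfp646, of which Zfp768, Zfp764 and Zfp629 lost their call when some samples were left out, with adjusted p up to 0.143. Zfp646 had 4309.8, 3990.2 and 4149 normalized counts in WT and 5006, 5118 and 5042 in cKO, a log2 fold change of 0.29 ± 0.04 (adjusted p = 2.11e-06). Zfp747 had 679, 744 and 654 in WT and 930.3, 955 and 851 in cKO, a log2 fold change of 0.40 ± 0.08 (adjusted p = 1.65e-04). Both were higher in every cKO sample than in any WT sample. Of the windows of Zfp747, 36.9% occur in another gene, and of Zfp764, 27.6%. Zfp688 and Zfp689, in the middle of this run, had log2 fold changes of −0.09 and −0.23 and were not called. On chromosome 6, a run of 8 members had 3 higher and none lower, and on chromosome 8 a run of 4 had 2 lower and none higher. Chromosome 7 carries 52 members, with 15 higher and 7 lower, and it also carries the Ncr1 locus of the Cre allele. That is 28.8% and 13.5% of these members, beside 22.4% and 25.4% of all genes with a mean of at least 200. Of 13 members within 10 Mb of Ncr1, 2 were higher and 3 lower, or 15.4% and 23.1%.

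**Figure D5:**
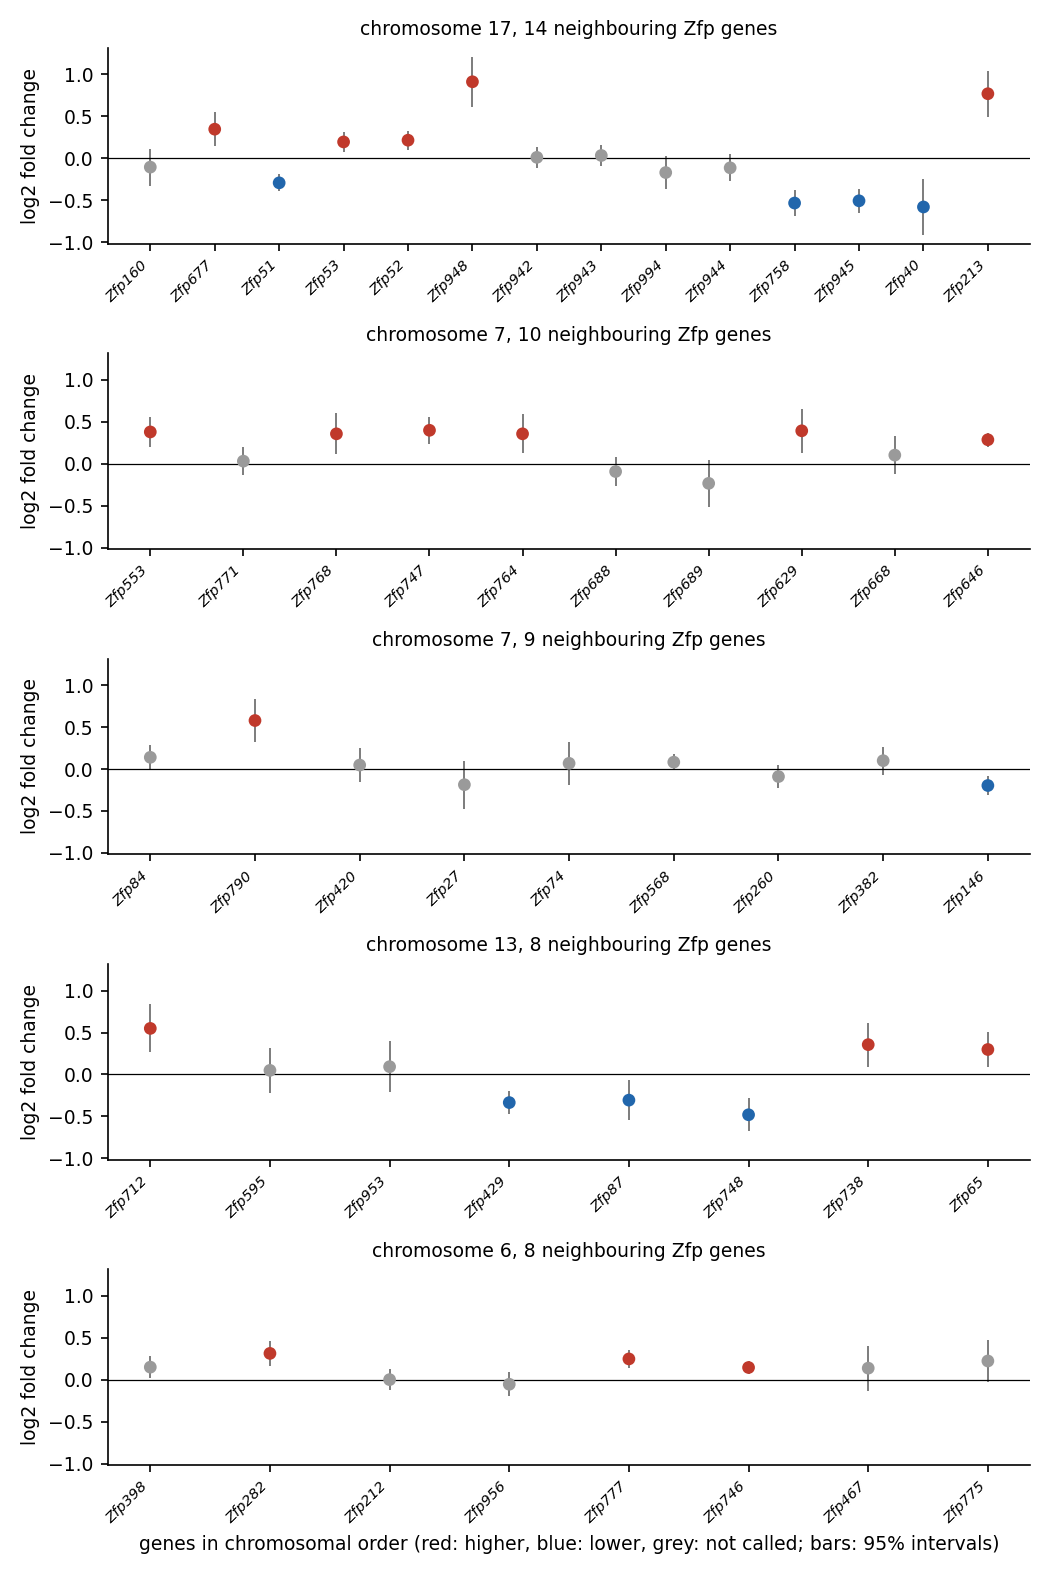
The 5 runs with at least 8 neighbouring Zfp genes are shown in chromosomal order (x axis), with the log2 fold change in cKO over WT (y axis) as points and 95% intervals as bars. The chromosome 17 run changes sign several times along its 14 genes, while the 10-gene run on chromosome 7 has 6 higher and no lower genes.

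Related sequence could let reads of one member be counted for another. In 23 members over 10% of the 50-base windows of the transcript also occur in another gene, and these had 4 higher and 5 lower. They include Zfp935, whose windows are all shared and which had 629.6, 677 and 647 normalized counts in WT and 494, 546 and 515 in cKO, and Zfp991 with 84.9% shared. Their levels are uncertain. An exon of 67 members overlaps another annotated gene, of which 18 were higher and 10 lower. The 126 members with neither feature had 28 higher and 25 lower and a median log2 fold change of 0.07. The shares called in these classes were, in this order, 39.1%, 41.8% and 42.1%, beside 47.8% of all genes with a mean of at least 200. The median share of windows found elsewhere was 0.08% over the members. The study's reads were paired and longer than these windows, so the windows can overstate how many reads are ambiguous, which was not measured.

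Levels per kilobase of transcript were low in this family. The median was 301 normalized counts per kilobase in the members and 748 in all genes with a mean of at least 200. Zfp622 led with 9918 per kilobase, followed by Zfp740 with 7590, Zfp207 with 5526, Zfp62 with 2801 and Zfp91 with 2669. Of these 5, Zfp62 passed the test. The lowest member was Zfp738, with 19.7 per kilobase. Under the minimum mean, 88 Zfp genes were listed, of which 5 were higher and 8 lower. That is 5.7% and 9.1% of them, beside 17.8% and 18.8% of all genes of any level. All genes under that mean were not counted apart, so these shares are not at equal level. Zfp184 had 125, 105 and 131 normalized counts in WT and 79.3, 41.8 and 33.8 in cKO, a log2 fold change of −1.29 ± 0.27 (adjusted p = 3.60e-04), and it was named after its values were seen.

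Other zinc finger families were counted at the same minimum mean, above which 22.4% of all genes were higher and 25.4% lower. Of 30 Zbtb genes, 6 were higher and 12 lower, with a median log2 fold change of −0.05. Of 14 Zscan and Zkscan genes, 6 were higher and 4 lower, with a median of 0.12. Of 16 Zc3h genes, which bind RNA, 2 were higher and 5 lower, with a median of 0.01. The difference between families was not tested.

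Because Zfp143 was higher, its recognition site was looked for in the promoters of the members, from 250 bases before to 50 after the start, in RefSeq sequence of GRCm38.p6. The letters ACTACAA, with which the site begins, were searched on both strands. They occurred in 10 of 170 members with a promoter sequence (5.88%), beside 5.38% of the promoters of genes with a mean of at least 200 and 3.78% of all promoters. Of 40 higher members with a promoter 1 held the letters, of 29 lower members 0, and of 101 others 9. The higher member, Zfp691, and Zfp933 and Zfp180 are shown as 30 bases around the letters, which are in capitals, at chr4:119174356-119174385 (minus strand), chr4:147848432-147848461 (minus strand) and chr7:24081867-24081896 (minus strand).
Zfp691: caaacctccgaACTACAActcccagcatgc
Zfp933: atttccaaagaACTACAAttcccagcattc
Zfp180: agctcaatggaACTACAAttcccagaactc
Zfp933 and Zfp180 had log2 fold changes of −0.11 and 0.06 and were not called. A match is a description of these windows, and binding was not measured here.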

How the data were processed

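The members, gene lists and patterns were chosen with earlier results of these data known. RNA was sequenced by the authors from NK cells of 3 WT and 3 cKO samples, grouped here by genotype in the labels. Reads were aligned to GRCm38 with HISAT2 and counted per gene with featureCounts 1.5.0-p3, per the submitters' processing notes, and whether strand was used is not given in the sources used here. In the sample columns the authors deposited a signal, the counts of a gene divided by the DESeq2 size factor of each sample. The deposited fold changes, p-values and means are the authors' own comparison and were not used, and 0 sample columns were left out.

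Values were taken as log2(value + 1). A minimum of 1 in no fewer than 3 samples was set, and every gene passed it. Genotypes were compared with limma 3.58.1 in R 4.3.3, with a variance trend, two-sided, and Benjamini-Hochberg adjustment over all 14490 genes. The steps were tested on simulated data. Replicates of a genotype differed by more than counting noise, with chi-square per degree of freedom of at least 5.50.

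Features came from the longest coding transcript of each gene in GENCODE M21 on GRCm38, for 14105 listed genes and all 204 members. Of the symbols, 19 were spreadsheet dates and were kept in the tests. Fingers and the KRAB A box were found by patterns, which can miss variants. Named members are the 10 largest rises and 10 largest falls among those called without overlap of the genotypes, and the members of 4 lists of known roles. Any other gene given with values was chosen for a feature described beside it. Other settings tried were a smaller pseudocount (0.1), dropping the filter, requiring 1 CPM in 3 samples, equal totals, TMM, limma-voom, a replicate block, a correction for GC content and length, leaving out each sample, no minimum mean, and the study's limits. Tests on counts were planned and not run, because a separate check refused the recovery of reads. That check took the worth of 1 read from the smallest value, which is more than 1 read in some samples. The whole reads described in the Results came from a search over fractions of the smallest value. They were used only for the read totals, the TMM factors and the comparison of replicates.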

Additional observations from a re-analysis of the deposited data

How the results depend on the processing

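Of 84 called Zfp genes, 56 kept their direction and call in all 14 settings that refitted the test, 29 higher and 27 lower. The other 28 lost the call in at least 1 setting, 12 of them only when a sample was left out, and no call turned its direction. The members called numbered 79 to 97 under other settings with all samples and 70 to 78 when 1 sample was left out, the lowest without cKO sample 1. The shares of all genes with a mean of at least 200 moved as well. In the main setting 22.4% were higher and 25.4% lower. These shares were 30.9% and 18.6% with equal totals, 19.1% and 28.1% after correction for GC content and length, and 19.0% and 21.6% without cKO sample 1. The median log2 fold change of the members was 0.10 with equal totals, where that of all genes rose to 0.05, 0.024 after correction for GC content and length, 0.04 with no minimum mean, and 0.037 to 0.055 when 1 sample was left out.

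Under the study's limits, an unadjusted p under 0.05 with a log2 fold change past 1, 0 members were called, 0 higher and 0 lower, beside 102 of 204 by limma with the unadjusted p alone. Of all 9945 genes with a mean of at least 200, 36 had a log2 fold change past 1 in size. An unadjusted p under 0.05 by limma was found in 5520 of them. The sign of uncalled genes near 0 turned with equal totals, to 0.039 for Zfp622, 0.039 for Zfp598, 0.0029 for Zfp335, 0.029 for Zfp91, 0.041 for Zfp341, 0.028 for Zfp592 and 0.00056 for Zfp410. When 1 sample was left out, the log2 fold change ran from −0.041 to 0.026 for Zfp622, −0.023 to 0.013 for Zfp598, −0.056 to 0.012 for Zfp91, −0.052 to 0.052 for Zfp341, −0.010 to 0.039 for Zfp281 and −0.037 to 0.0082 for Zfp592. The cause was not tested.

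With the replicate number as a block (replicate block), 88 members were called, 51 higher and 37 lower, and 84 of 84 calls were kept. Of all genes with a mean of at least 200, 23.4% were higher and 26.5% lower in this setting. Deviations of same-numbered samples correlated at −0.070, 0.122 and 0.070, so the numbers were not taken as pairs. Tests on counts by edgeR and by a DESeq2 model were not run. Genes with few reads carry wide intervals, and a change of the size seen in most members could not be detected at the lowest levels.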
